A study of Mus musculus with 12 samples.

Results

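The genes described here drive cells through the cell cycle and mitosis: cyclins, cyclin-dependent kinases and their activators, mitotic kinases, spindle checkpoint and kinetochore genes, spindle motors and cytokinesis genes. They were listed by symbol, 38 in all, and each was read from the probe set that mapped to that symbol alone and had the highest mean over the 12 arrays. Of the 38 genes, 37 were measured, among 19938 genes tested. Ccnb1, which encodes cyclin B1, was not analysed here. Top2a had 2 probe sets and each of the other measured genes had 1. The arrays measured RNA from mouse intestinal epithelium that had been laser microdissected on stained histological sections, either from tumors or from the epithelium beside them. All mice were male, 25 weeks old and on a C57BL6/J APCmin/+ background, in which a mutant Apc allele gives rise to intestinal tumors. The FSPCre-PPARB -/- mice (KO) carried a Cre driven by the fibroblast-specific protein promoter, which deletes Ppard in fibroblasts, so the epithelium that was cut is not the cell type the deletion targets. Their PPARB flox/flox littermates (floxed) carried the intact floxed gene. There were 3 KO tumor arrays, 3 floxed tumor arrays, 2 KO adjacent arrays and 2 floxed adjacent arrays. For 2 further adjacent arrays the title and the characteristic named opposite genotypes. The title of conflict array 1 says KO and its characteristic says floxed, and conflict array 2 is the reverse. Both were used where tissues were compared over all 12 arrays and in no genotype group. The labels do not tie arrays to animals, so p-values measure the spread between arrays.

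In intestinal epithelium, dividing cells lie in the crypts, and cells leave the cycle as they move out and differentiate into absorptive enterocytes and secretory cells. D- and E-type cyclins with their kinases carry a cell from G1 into S phase, cyclin A acts in S phase and G2, and B-type cyclins with Cdk1 start mitosis. In mitosis the kinases Plk1, Aurka and Aurkb, the kinetochore proteins and the spindle motors attach and move chromosomes. The spindle checkpoint holds the anaphase-promoting complex, with its activator Cdc20, until all chromosomes are attached. Many of these genes peak together in G2 and M phase, through promoters that hold a CCAAT box, bound by NF-Y, and a cell cycle genes homology region, bound by the MuvB complex with B-Myb or Foxm1.

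Promoter windows from RefSeq, from 250 bases before to 50 after the annotated start in GRCm38.p6, were found for 29 of the 37 measured genes, in 30 windows because Prc1 had 2. The CCAAT box, searched as CCAAT on both strands, was in 21 of the 30 windows (70%), against 37.4% of the 32851 windows of the same length in the table. At least 2 copies were in 12 of them (40%, against 11.7%). The core of the homology region, searched as TTTGAA on both strands, was in 20 windows (66.7%, against 17.9%), and its second form, TTCGAA, was in 4 (13.3%, against 1.56%). Both CCAAT and TTTGAA were in 17 windows (56.7%, against 6.95%). The E2F site TTTCCCGC was in 1 window, that of Cdk2 (3.33%, against 1.07%), and TTTGGCGC was in 0, against 0.514%. Motifs were counted separately whether or not their matches overlapped, and a match is a description of the sequence, not a binding site. The upstream 250 bases are printed for 5 genes to which the expression results below return, with motif matches on either strand in capitals. They are the proliferation mark Mki67 at chr7:135716380-135716629, the topoisomerase Top2a at chr11:99024190-99024439, the mitotic kinase Cdk1 at chr10:69352913-69353162 and the cytokinesis motor Kif23 at chr9:61946800-61947049, all on the minus strand, and the checkpoint gene Mad2l1 at chr6:66534971-66535220 on the plus strand.
Mki67: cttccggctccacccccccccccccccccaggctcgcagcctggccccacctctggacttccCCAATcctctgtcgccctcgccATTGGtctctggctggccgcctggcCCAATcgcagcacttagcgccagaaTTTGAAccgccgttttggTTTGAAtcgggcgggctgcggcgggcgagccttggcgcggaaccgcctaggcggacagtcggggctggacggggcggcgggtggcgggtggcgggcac
Top2a: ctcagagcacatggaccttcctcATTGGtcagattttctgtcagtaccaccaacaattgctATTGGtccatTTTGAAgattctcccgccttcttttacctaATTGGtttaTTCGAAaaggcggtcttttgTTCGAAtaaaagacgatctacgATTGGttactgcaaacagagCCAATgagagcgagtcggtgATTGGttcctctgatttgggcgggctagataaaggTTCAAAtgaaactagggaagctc
Cdk1: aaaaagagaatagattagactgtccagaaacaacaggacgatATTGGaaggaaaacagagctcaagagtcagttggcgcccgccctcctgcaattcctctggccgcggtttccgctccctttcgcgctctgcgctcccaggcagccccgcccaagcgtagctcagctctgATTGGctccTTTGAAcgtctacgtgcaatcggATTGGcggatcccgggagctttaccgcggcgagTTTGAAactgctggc
Kif23: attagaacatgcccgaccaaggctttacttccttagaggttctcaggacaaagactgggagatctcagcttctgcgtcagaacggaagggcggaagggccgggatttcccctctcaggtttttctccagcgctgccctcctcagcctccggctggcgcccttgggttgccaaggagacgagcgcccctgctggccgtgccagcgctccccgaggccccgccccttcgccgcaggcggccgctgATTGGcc
Mad2l1: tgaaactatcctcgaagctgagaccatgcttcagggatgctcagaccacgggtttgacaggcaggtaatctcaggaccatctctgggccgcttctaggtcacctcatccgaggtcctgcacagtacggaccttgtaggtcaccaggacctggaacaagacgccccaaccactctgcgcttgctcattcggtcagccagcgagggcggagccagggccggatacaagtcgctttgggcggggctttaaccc
The Top2a stretch holds the densest run of matches of the 5, and the Mad2l1 stretch holds no match to the letters searched. In Kif23 a TTTGAA match lies just past the start and so outside the printed stretch.

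**Figure D1:**
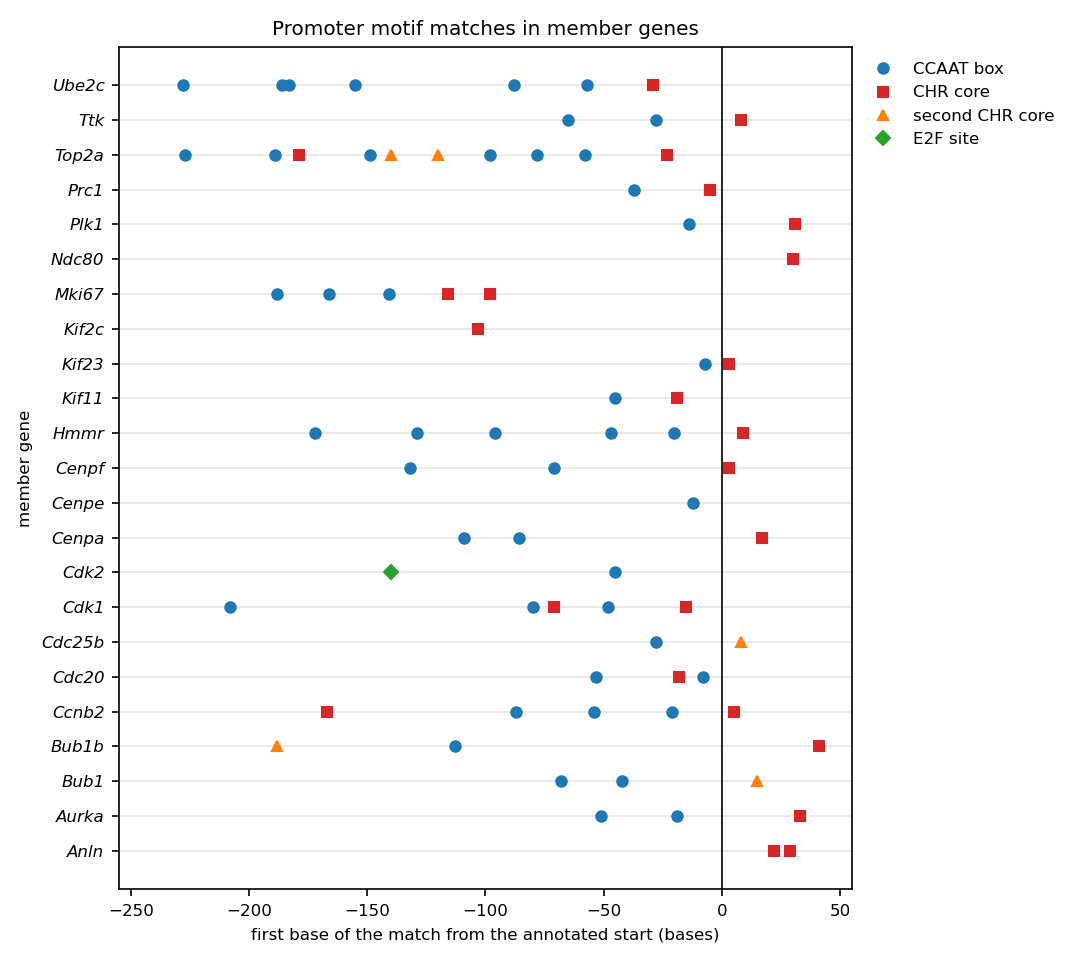
Motif matches in the promoter windows of the 23 measured genes with at least 1 match, placed by the distance in bases of the first base of the match from the annotated start (vertical line); for Prc1 1 of its 2 windows is drawn. CCAAT boxes lie upstream of the start, and the homology region cores (CHR) lie mostly nearer to it, on either side.

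The floxed tumor arrays 1 and 2 and the floxed adjacent arrays 1 and 2 stood apart from the other 8. The SD of their deposited values was 1.04 to 1.09, against 1.49 to 1.57 in the others, and their median correlation with the other arrays was under 0.7. The 1027 olfactory receptor genes, most of which intestinal epithelium is not known to use, served as a background set. Their median log2 value was 3.89 to 4.08 in these 4 weak-signal arrays and 2.75 to 3.01 in the others. Every floxed adjacent array was of weak signal and no KO array was, so genotype and array quality cannot be told apart in the adjacent tissue. The cell cycle genes were dim: 13 of 37 (35.1%) did not exceed the 95th percentile of the olfactory receptor genes in any array, against 30.4% of all genes tested, and 0 of 37 exceeded it in all 12. These 13 were Cdc25c, Melk, Bub1, Bub1b, Ttk, Cenpe, Nuf2, Kif11, Kif20a, Kif2c, Prc1, Anln and Hmmr, whose values cannot be separated from background here. The genes above it in 8 or more arrays were Mki67, Ccne1, Ccnd2, Cdk1, Cdc25b, Plk1, Aurka and Aurkb.

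The tissue labels were set against markers of tumor and of differentiated epithelium. In KO mice, 15 of 17 measured Wnt target genes, which rise in Apc-mutant tumors, were lower in the libraries labelled tumor, with a median log2 difference of -0.74. The mean log2 value of the list was 4.69 to 4.73 in the libraries labelled KO tumor and 5.41 and 5.63 in those labelled KO adjacent. Of the 19 measured enterocyte markers, 19 were higher in the libraries labelled KO tumor, with a median difference of 1.53, and list means were 7.90 to 8.59 against 7.17 and 6.27. In floxed mice 19 of 19 enterocyte markers also had a higher mean in the libraries labelled tumor, with a median of 2.22. Their list means overlapped, at 7.58, 5.79 and 9.02 in floxed tumor and 5.90 and 4.91 in floxed adjacent arrays. The highest was in floxed tumor array 3, the only floxed array not of weak signal. For 8 of 19 markers every tumor array lay above both adjacent arrays, against 8.64% of all genes. The Wnt targets had 10 of 17 below 0 and a median of -0.14 in floxed mice. Both marker lists ran against the tissue label in KO mice. In floxed mice the enterocyte list did so in its mean, with overlapping arrays. Each direction below is one between libraries as labelled.

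In the libraries labelled KO tumor, 36 of the 37 cell cycle genes had a lower mean than in those labelled KO adjacent, and the median log2 difference was -0.37. Of all genes tested, 42.7% had a difference below 0, with a median of 0.04. For 20 of 37 genes (54.1%) every KO tumor array lay below both KO adjacent arrays, against 14.1% of all genes, and for 0 genes did every tumor array lie above, against 17.9%. With all 10 arrays of known genotype fitted together (limma, Benjamini-Hochberg over all genes), 0 of the 37 passed an adjusted p of 0.05, against 0.0201% of all genes. At an unadjusted p under 0.05 there were 6, against 2.47% of all genes. With the 5 KO arrays fitted alone, 1 gene passed, Ccna2, which was lower in tumor, against 1.29% of all genes called lower and 1.85% called in either direction. If conflict array 1 is counted as KO, as its title says, 11 genes (29.7%, against 8.37% of all genes) showed no overlap, and if conflict array 2 is, as its characteristic says, 5 did (13.5%, against 6.38%). In bulk tissue, fewer dividing cells and less of an RNA per cell cannot be told apart.

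**Figure D2:**
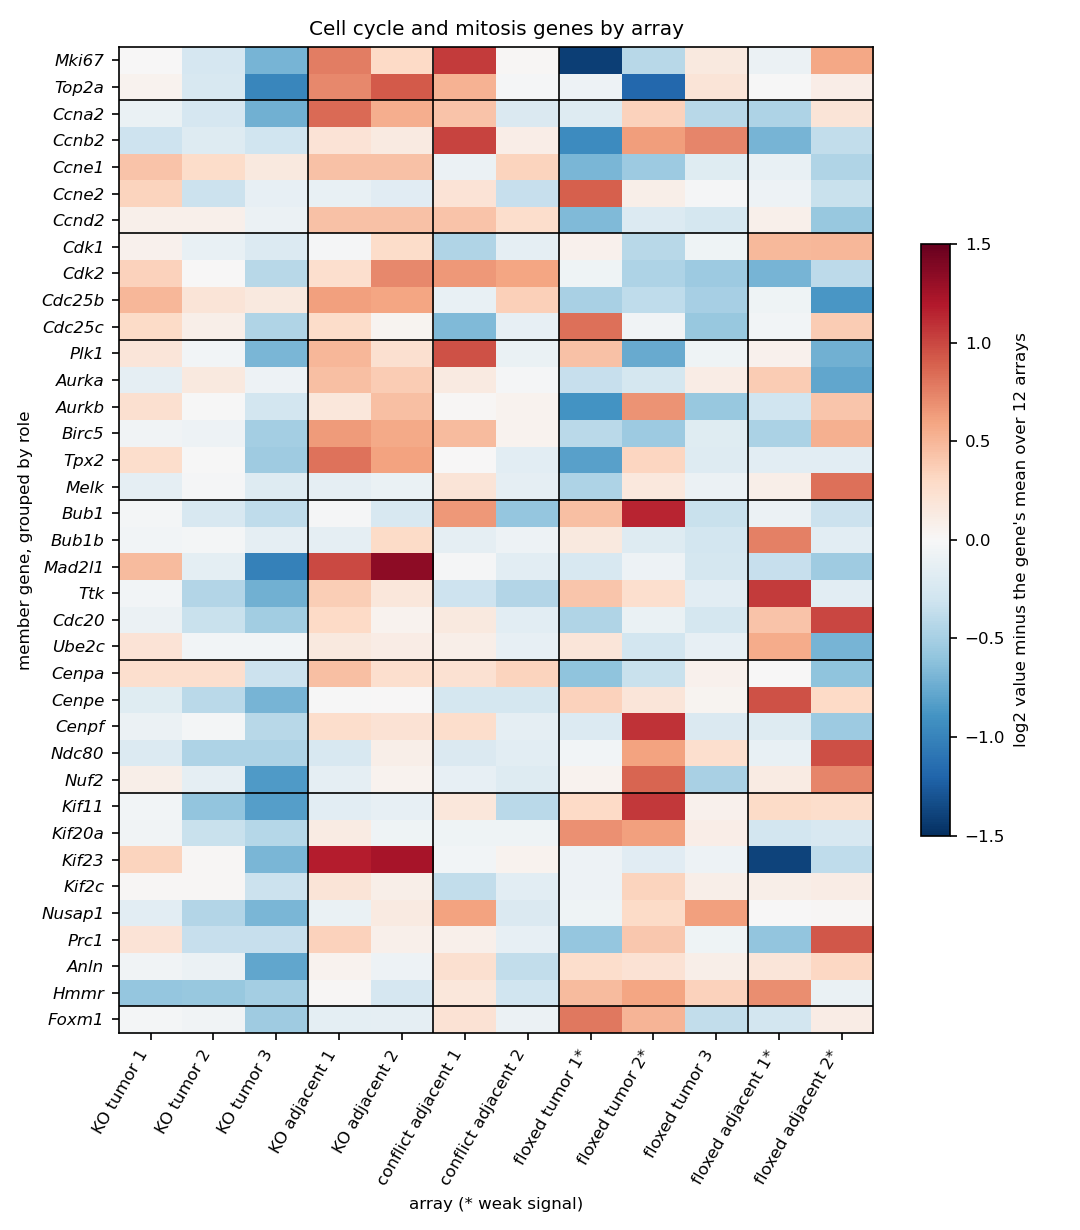
Log2 value of each measured cell cycle gene in each array minus that gene's mean over the 12 arrays, with genes in rows grouped by role and arrays in columns. KO tumor array 3 is the lowest of the 12 arrays for 12 genes, and KO adjacent arrays 1 and 2 are the highest for 7 and 5.

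The proliferation marks were among the genes that differed most between the KO tissues. Mki67, whose protein coats mitotic chromosomes and marks cycling cells, had log2 values of 4.95, 4.69 and 4.25 in KO tumor and 5.72 and 5.25 in KO adjacent arrays. The groups did not overlap, and the difference was -0.86 ± 0.44 (SE) with an adjusted p of 1. Top2a, which untangles replicated DNA, had values of 4.79, 4.49 and 3.75 against 5.45 and 5.65. That is a difference of -1.20 ± 0.42 (adjusted p = 1, limma), a 2.3-fold lower level, again with no overlap. KO tumor array 3 was the lowest of the 5 KO arrays for both genes.

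Of the 5 measured cyclins, 4 had lower means in KO tumor. Ccna2, cyclin A2, had values of 4.52, 4.36 and 3.90 in KO tumor and 5.47 and 5.16 in KO adjacent arrays, with no overlap. Its difference was -1.05 ± 0.33, with an adjusted p of 1 in the fit of 10 arrays and 0.0461 in limma on the 5 KO arrays. Ccnd2, cyclin D2, a G1 cyclin, was at 5.82, 5.82 and 5.66 against 6.18 and 6.18, a difference of -0.41 ± 0.28. Ccne1, cyclin E1, acts at the entry to S phase. It was at 5.54, 5.39 and 5.26 against 5.55 and 5.55, a difference of only -0.15 ± 0.26. Ccnb2, a B-type cyclin, was at 4.25, 4.37 and 4.27 against 4.77 and 4.70, with no overlap and a difference of -0.44 ± 0.44. Ccne2, cyclin E2, was the single gene with a higher mean in KO tumor: 4.49, 3.83 and 4.03 against 4.05 and 3.99, a difference of 0.09 ± 0.33 with overlapping groups.

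The differences of the kinases and their regulators varied. Cdk1, the kinase that starts mitosis, had values of 4.95, 4.77 and 4.68 in KO tumor and 4.86 and 5.15 in KO adjacent arrays. These overlapped, with a difference of -0.20 ± 0.26. The other genes of this role, Cdk2, Cdc25b and Cdc25c, differed by -0.50, -0.33 and -0.19, and only for Cdc25b did the groups not overlap. Among the mitotic kinases and Aurora partners the median difference was -0.50. Birc5 encodes survivin, the partner of Aurora B. It was at 4.61, 4.58 and 4.15 against 5.30 and 5.23, a difference of -0.82 ± 0.32, and its groups did not overlap. Tpx2, which activates Aurora A on the spindle, differed by -0.80 ± 0.36, and Plk1 by -0.56 ± 0.40, both without overlap. Melk, a kinase at the level of background here, differed by 0.00 ± 0.29.

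Mad2l1 and Kif23 had the lowest differences of the 37. Mad2l1 encodes the checkpoint protein that holds back Cdc20. It was at 4.86, 4.23 and 3.37 in KO tumor and 5.37 and 5.72 in KO adjacent arrays, a difference of -1.39 ± 0.38, or 2.62-fold lower. Its adjusted p was 0.893 in limma, the groups did not overlap, and its 3 KO tumor values spanned a wide range. Of the other checkpoint genes, Ttk differed by -0.66 and Cdc20 by -0.49 without overlap, and Bub1, Bub1b and Ube2c by -0.09 to -0.15 with overlap. Kif23, the motor that bundles microtubules in the dividing cell's midzone, was at 5.42, 5.11 and 4.4 against 6.26 and 6.32. Its difference was -1.31 ± 0.36 (2.48-fold lower, adjusted p = 0.92, limma), and both KO adjacent values lay above every other array of the study. The other 7 spindle motor and cytokinesis genes differed by -0.24 to -0.44, and the 5 centromere and kinetochore genes by -0.26 to -0.43. Foxm1, a transcription factor of G2 and M phase genes, had values of 4.13, 4.11 and 3.63 against 4.02 and 4.03, a difference of -0.07 ± 0.35 with overlap.

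The 5 KO arrays did not contribute alike. KO tumor array 3 was the lowest of the 5 for 33 of the 37 genes, against 21.8% of all genes tested, and KO adjacent arrays 1 and 2 were the highest for 19 and 11, against 14.7% and 19.4%. Without KO tumor array 3 the mean was lower in tumor for 32 genes, with a median difference of -0.28. In that setting 20 genes showed no overlap (54.1%, against 20.9% of all genes). Leaving out an array cannot lower a count of genes without overlap, so this count is no check on the part of that array. The SD among the 3 KO tumor arrays had a median of 0.26 over the cell cycle genes and 0.16 over all genes.

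**Figure D3:**
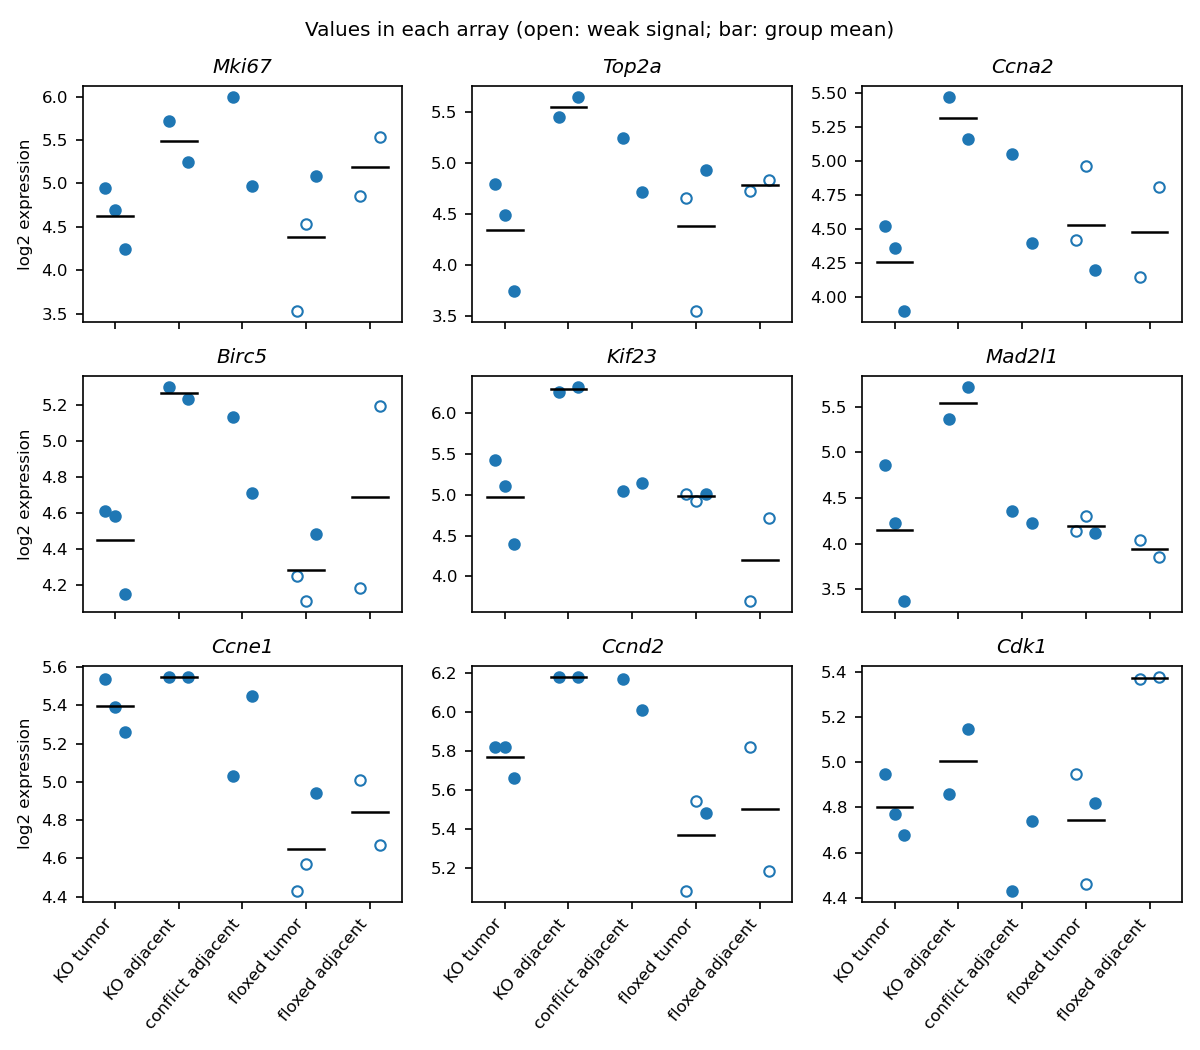
Log2 expression of 9 cell cycle genes in every array, by group, with open points for weak-signal arrays and bars for the means of the 4 groups of known genotype. Kif23 stands at 6.26 and 6.32 in the KO adjacent arrays and at 5.42 or less in all others, and Mki67 is highest, at 6.0, in conflict adjacent array 1.

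Other genes of cell division, from lists that do not hold the 37, were also mostly lower in the libraries labelled KO tumor. Of all genes tested, 42.7% had a difference below 0 and 14.1% were lower in tumor without overlap. Of 47 DNA replication genes 40 had a difference below 0 (median -0.24) and 22 (46.8%) were lower without overlap. Hells, a chromatin remodeller, was at -0.84 and the helicase subunit Mcm7 at -0.78. Of 50 other spindle, kinetochore and cytokinesis genes 42 were below 0 (median -0.24), with the checkpoint gene Bub3 at -0.86 and the kinetochore gene Cenpk at -0.72. Of 18 condensin and cohesin genes 16 were below 0 (median -0.40), with the condensin subunits Smc4 at -0.83 and Smc2 at -0.82. Of 15 genes of the anaphase-promoting complex and its regulators 14 were below 0 (median -0.30), and of 23 genes of G1 cyclins, E2F and MuvB 18 were (median -0.24). CDK inhibitors and cell cycle exit genes lay near the background, with 12 of 18 above 0 (57.3% of all genes were) and a median of 0.08 (0.04 over all genes). None of these genes passed the test over 10 arrays. In limma on the 5 KO arrays alone, 3 of 23 genes of the G1 list and 2 of 50 other spindle genes were called lower. Of all genes 1.29% were called lower in that fit. Among the called genes were Cks2 (adjusted p = 0.0367), Tfdp1 (0.0489), Bub3 (0.0461) and Cenpk (0.0493).

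Markers of other cells moved with this comparison as well. Intestinal stem cell markers were below 0 for 8 of 10, and Gkn3, a marker of crypt stem cells, was called lower in KO tumor (-4.06 ± 0.50, limma adjusted p = 0.038). This call was lost under quantile normalization, with genotype by characteristic, and without any single array of the 5 KO arrays, of the 2 floxed adjacent arrays or floxed tumor array 2. Conflict adjacent arrays 1 and 2 were at 8.87 and 4.34 for Gkn3, with KO tumor arrays at 3.86 to 4.44 and KO adjacent arrays at 8.51 and 8.02. Of 14 fibroblast markers 11 were below 0, with a median of -0.16 and array means of 4.89 to 5.11 in KO tumor against 5.32 and 5.22. Lymphocyte and plasma cell markers had a median of 0.26, and goblet and Paneth, endothelial and smooth muscle, and myeloid markers had medians of 0.03 to 0.09. The part of these markers in the cell cycle values was not tested.

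In floxed mice the cell cycle genes had no common direction between the tissues. Of the 37, 20 had a difference below 0, against 50.8% of all genes, the median was 0.00, and the median over all genes was -0.01. There were 0 calls, against 0.00502% of all genes, and 3 genes at an unadjusted p under 0.05, against 12.5%. Every tumor array lay above both adjacent arrays for 4 genes (8.64% of all genes did) and below for 2 (10.1%). Cdc20 had the lowest difference, with 4.22, 4.57 and 4.41 in floxed tumor and 5.10 and 5.68 in floxed adjacent arrays (-0.99 ± 0.28, adjusted p = 0.233, limma). Mki67 was at 3.53, 4.53 and 5.09 against 4.86 and 5.53, which overlapped (-0.81 ± 0.44, adjusted p = 0.474). Cdk1 was at 4.95, 4.46 and 4.82 against 5.37 and 5.38, without overlap (-0.63 ± 0.26, adjusted p = 0.357). Among the higher values, Kif23 was at 5.01, 4.92 and 5.01 against 3.70 and 4.71 (0.78 ± 0.36). Kif20a, a cytokinesis motor at the level of background, was at 4.81, 4.75 and 4.23 against 3.86 and 3.89 (0.72 ± 0.27). Ccnb2 was at 3.62, 5.19 and 5.30 against 3.87 and 4.20, with overlap (0.67 ± 0.44). Top2a was at 4.66, 3.55 and 4.93 against 4.73 and 4.83, and its groups overlapped. Of the 5 floxed arrays, 4 were of weak signal, and the median SD among floxed tumor arrays was 0.32 over these genes and 0.50 over all genes.

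**Figure D4:**
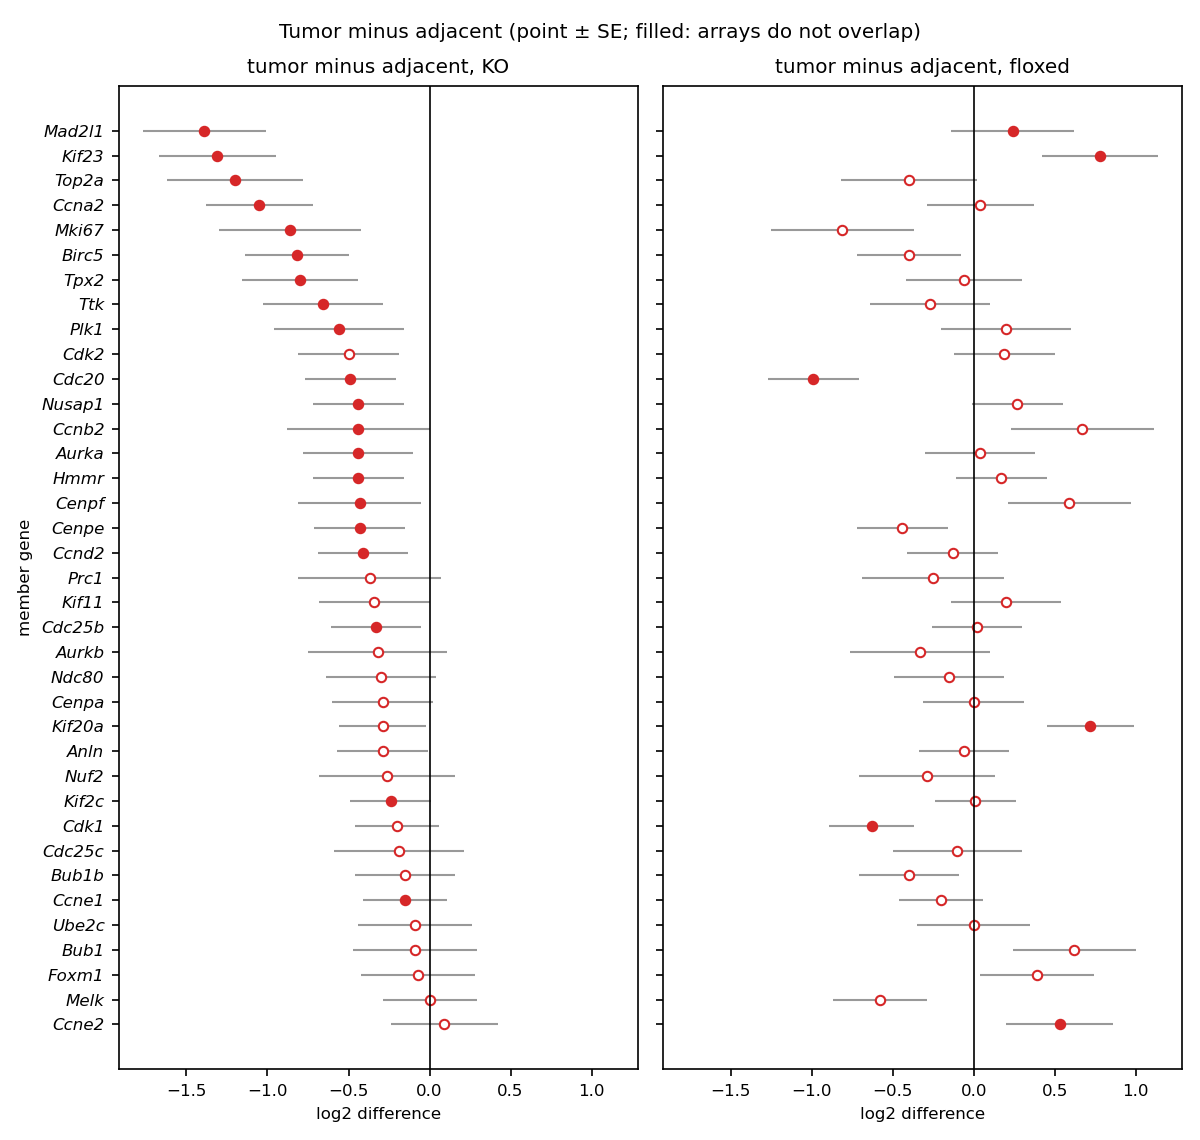
Log2 difference, tumor minus adjacent, with its SE for each measured cell cycle gene in KO mice (left) and floxed mice (right), in the order of the KO differences; filled points are genes whose tumor and adjacent arrays do not overlap. In KO mice 36 of 37 points lie below 0 and in floxed mice 20 do.

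The difference between these tissue differences, the interaction of genotype and tissue, was tested in the same fit. It had a median of -0.39 over the 37 genes and 0.03 over all genes, and 29 of 37 were below 0, against 47.6% of all genes. There were 0 calls among the 37 and 0% among all genes, and 4 of the 37 had an unadjusted p under 0.05, against 6.42% of all genes. Kif23 had an interaction of -2.09 ± 0.51 (adjusted p = 0.611) and Mad2l1 one of -1.64 ± 0.53 (adjusted p = 0.707, limma). A difference between the genotypes in how the tissues differ was therefore not established for any of the genes.

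Over all 12 arrays, 30 of 37 genes had a lower mean in the 6 arrays labelled tumor than in the 6 labelled adjacent, against 49.2% of all genes, and the median difference was -0.19 against 0.00. There were 0 calls (0% of all genes), 4 genes had an unadjusted p under 0.05 (2.57% of all genes), and the tissues overlapped for all 37 (0.0652% of all genes lay wholly higher and 0.13% wholly lower in tumor). Mki67 differed by -0.88 ± 0.28, Top2a by -0.74 ± 0.27 and Birc5 by -0.59 ± 0.21 (adjusted p = 1 for each, limma). The conflict adjacent arrays 1 and 2 were at 6.0 and 4.97 for Mki67, 5.25 and 4.72 for Top2a, and 5.13 and 4.71 for Birc5. Conflict array 1 was thus above every tumor array for these 3 genes and conflict array 2 was above every tumor array for Birc5 alone. Ccne2, Bub1 and Kif20a had the highest differences, 0.28, 0.20 and 0.20, and the last pair of genes was below 0 without the weak-signal arrays (-0.20 and -0.16).

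In adjacent epithelium 2 of the 37 genes, Kif23 and Mad2l1, were called higher in KO than in floxed mice, against 2.91% of all genes called higher, and 0 were called lower, against 3.15%. In either direction 6.06% of all genes were called. Kif23 was at 6.26 and 6.32 in KO and 3.70 and 4.71 in floxed arrays, a difference of 2.09 ± 0.40 or 4.26-fold (adjusted p = 0.0242, limma), higher in 2 of 2 KO arrays. Mad2l1 was at 5.37 and 5.72 against 4.04 and 3.85, a difference of 1.61 ± 0.41 or 3.05-fold (adjusted p = 0.0473), also without overlap. Either reading of the conflicting labels ended both calls, as did quantile normalization and leaving out KO adjacent array 1, KO adjacent array 2 or KO tumor array 2. Without floxed adjacent array 1 neither gene was called and Cdc25b was, and without floxed adjacent array 2, floxed tumor array 1 or KO tumor array 1 only Kif23 was. Calls over all genes fell as well, from 1209 to 1 with genotype by title, 48 by characteristic and 128 under quantile normalization. The conflict arrays had 5.05 and 5.14 for Kif23 and 4.36 and 4.22 for Mad2l1, between the KO and the floxed values.

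The other genes ran both ways in this comparison. The median difference was 0.20, against -0.04 over all genes, with 24 of 37 above 0 and 13 below, against 52.4% of all genes below. An unadjusted p under 0.05 was seen for 8 genes, against 28.2% of all genes, and every KO array lay above both floxed arrays for 16 genes (32.1% of all genes) and below for 7 (35%). All 5 cyclins had higher means in KO. Ccna2 differed by 0.84 ± 0.36, Ccne1, at 5.55 and 5.55 against 5.01 and 4.67, by 0.71 ± 0.28, and Ccnd2, at 6.18 and 6.18 against 5.82 and 5.18, by 0.68 ± 0.30. Cdc25b, a phosphatase that activates Cdk1, was at 5.70 and 5.67 against 5.01 and 4.21 (1.08 ± 0.31, adjusted p = 0.0608, limma). Cdk1 itself had lower values in KO, 4.86 and 5.15 against 5.37 and 5.38, a difference of -0.37 ± 0.28 with an adjusted p of 0.402.

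The lowest differences in adjacent epithelium were those of Cenpe, a kinetochore motor, Melk and Cdc20. Cenpe was at 3.51 and 3.52 in KO and 4.48 and 3.82 in floxed arrays (-0.63 ± 0.31, adjusted p = 0.205, limma). Melk was at 3.99 and 4.02 against 4.21 and 4.94 (-0.57 ± 0.32, adjusted p = 0.264). Cdc20 was at 4.97 and 4.73 against 5.10 and 5.68 (-0.54 ± 0.30, adjusted p = 0.264). Direction differed with brightness: the 12 cell cycle genes among the dimmest 30% of all genes had a median of -0.20 and the other 25 a median of 0.62, with the median over all genes at 0.24 once the dimmest 30% were left out. Mki67, Top2a and Foxm1 differed by 0.29 ± 0.48, 0.77 ± 0.46 and -0.05 ± 0.39.

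**Figure D5:**
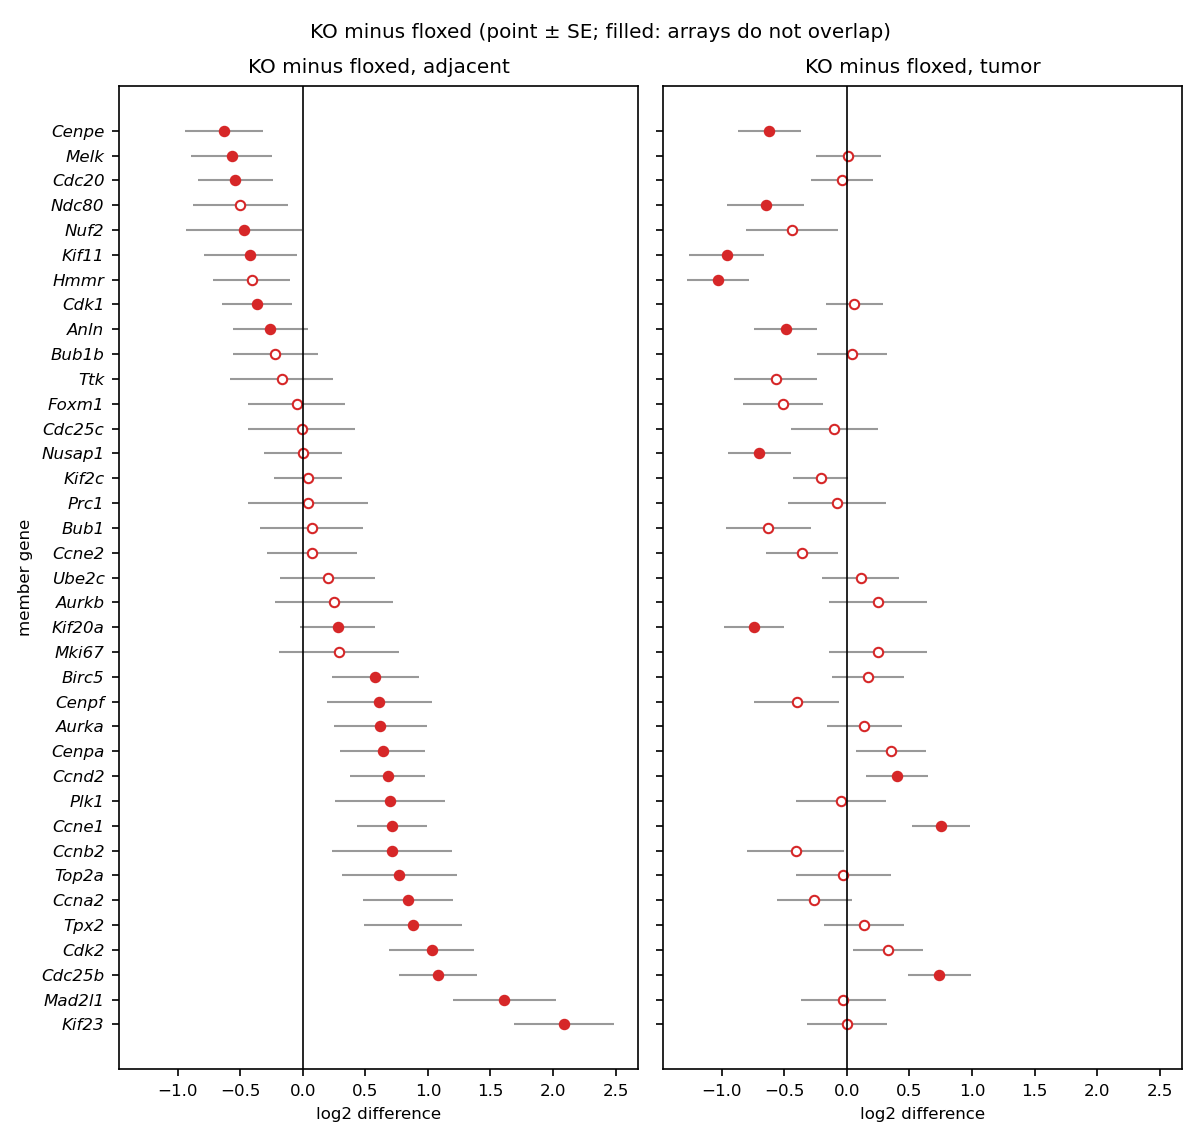
Log2 difference, KO minus floxed, with its SE for each measured cell cycle gene in adjacent epithelium (left) and tumor (right), in the order of the adjacent differences; filled points are genes whose KO and floxed arrays do not overlap. Kif23 and Mad2l1 lie highest in adjacent epithelium, at 2.09 and 1.61, and close to 0 in tumor, where Hmmr is lowest at -1.03.

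Of the other cell division genes, in lists of 23, 47, 50, 18, 15 and 18, 10 were called in adjacent epithelium, all higher in KO. Of all genes 2.91% were called higher there and 6.06% in either direction. Of 23 genes of the G1 list 4 were called, all higher: Tfdp1, the partner of E2F factors (2.42 ± 0.40), Ccnd1, cyclin D1 (2.05 ± 0.41), its kinase Cdk4 (1.66 ± 0.36) and the phosphatase Cdc25a (1.73 ± 0.40). Ccnd1 was at 6.29 and 6.38 in KO and 4.14 and 4.43 in floxed adjacent arrays (adjusted p = 0.0256, limma). Of the other lists, 1 of 47 DNA replication genes (Mcm7), 1 of 50 other spindle genes (Bub3), 1 of 18 condensin and cohesin genes (Pds5a), 2 of 15 genes of the anaphase-promoting complex (Anapc5 and Anapc11) and 1 of 18 CDK inhibitors and exit genes (Cdkn1b) were called, all higher. As with Kif23 and Mad2l1, these calls did not hold in every setting, and calls over all genes fell from 1209 where they were lost. All 10 were kept with array weights, with only the arrays compared and with a replicate block, where 4034, 3435 and 2450 of all genes were called. They were also kept without floxed tumor array 1, 2 or 3 (1804, 3041 and 4903 of all genes). Without the 30% dimmest genes 8 were left (454 of 13956 genes), and with probe set means 8 (1175 genes). Of the 10, 0 were left with genotype by title or by characteristic, where 1 and 48 of all genes were called. Under quantile normalization 1 was left, Pds5a, with 128 of all genes called. They were also lost without KO adjacent array 1 or 2, which leaves 1 KO array. Leaving out KO tumor array 1, 2 or 3 left 2, 2 and 3, with 212, 155 and 254 of all genes called. Leaving out floxed adjacent array 1 or 2, which leaves 1 floxed array, also lost some of them. The median differences were 0.53 in the G1 list, 0.06 in DNA replication, -0.07 in the other spindle genes and 0.61 in the anaphase-promoting complex list. In the same arrays enterocyte markers were higher in KO for 18 of 19 (median 1.01), Wnt targets for 14 of 17 (median 0.98), stem cell markers for 9 of 10 (median 0.97), goblet and Paneth markers for 9 of 12 (median 0.66) and fibroblast markers for 11 of 14 (median 0.58). Lymphocyte and plasma cell markers were lower for 10 of 13 (median -0.42) and myeloid markers for 10 of 14 (median -0.15), and endothelial and smooth muscle markers had a median of -0.01. Their part in the cell cycle values was not tested.

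In tumor epithelium 0 of the 37 genes were called between KO and floxed mice, against 1.08% of all genes (215 genes). A fit that paired arrays by replicate number called 782 genes and again 0 of the 37. An unadjusted p under 0.05 was seen for 7 genes, against 23% of all genes. The median difference was -0.05 (-0.25 without KO tumor array 1 and 0.07 without KO tumor array 3), against -0.01 over all genes, and 23 of 37 genes were below 0, against 50.4% of all genes. Every KO array lay above every floxed array for 3 genes (13.2% of all genes) and below for 7 (13.9%). All 8 spindle motor and cytokinesis genes had differences at or below 0, with a median of -0.60, and 6 of the 8 were among the dim genes named above. Hmmr, a spindle-associated protein, was at 2.66, 2.67 and 2.73 in KO and 3.72, 3.83 and 3.59 in floxed tumor arrays (-1.03 ± 0.25, adjusted p = 0.0732, limma). Kif11, the motor that separates the spindle poles, was at 3.57, 3.02 and 2.79 against 3.91, 4.67 and 3.68 (-0.96 ± 0.30, adjusted p = 0.115). Kif20a was at 4.08, 3.80 and 3.70 against 4.81, 4.75 and 4.23 (-0.74 ± 0.24, adjusted p = 0.124). None of these 3 exceeded the olfactory receptor percentile in any array, and that percentile itself was 5.12 and 5.36 in floxed tumor arrays 1 and 2 against 4.26 to 4.47 in the other tumor arrays. Markers of other cells differed in these arrays too. Enterocyte markers were higher in KO for 17 of 19 (median 0.97), goblet and Paneth markers for 8 of 12 (median 0.73), stem cell markers for 8 of 10 (median 0.36) and fibroblast markers for 10 of 14 (median 0.48), and myeloid markers were lower for 10 of 14 (median -0.28). For 0 of 19 enterocyte markers did every KO array lie above every floxed array, against 13.2% of all genes. The enterocyte list mean was 7.90, 8.59 and 8.47 in KO tumor arrays. It was 7.58 and 5.79 in the weak-signal floxed tumor arrays 1 and 2, and 9.02, above every KO tumor array, in floxed tumor array 3. Col3a1, a fibroblast collagen, was called higher and S100a8, a granulocyte gene, lower. Both calls were lost with only the tumor arrays in the fit (adjusted p = 0.139 for each, limma). They were also lost without any single KO array, without floxed tumor array 1 or 2, with genotype by title and under quantile normalization. Both were kept with probe set means, array weights, a replicate block and genotype by characteristic. The part of these markers in the cell cycle values was not tested.

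The highest differences in tumor were those of Ccne1, Cdc25b and Ccnd2. Ccne1 was at 5.54, 5.39 and 5.26 in KO and 4.43, 4.57 and 4.94 in floxed arrays (0.75 ± 0.23, adjusted p = 0.109, limma). Cdc25b was at 5.58, 5.27 and 5.23 against 4.59, 4.70 and 4.58 (0.74 ± 0.25, adjusted p = 0.134). Ccnd2 was at 5.82, 5.82 and 5.66 against 5.08, 5.54 and 5.48 (0.40 ± 0.25, adjusted p = 0.356). In each of these 3 genes the lowest KO tumor array was above the highest floxed tumor array. Mki67, Top2a and Cdk1 overlapped between the genotypes, and Mki67 differed by 0.25 ± 0.39. Foxm1, at 4.13, 4.11 and 3.63 against 4.95, 4.67 and 3.79, overlapped as well. The count of calls rose to 6 without floxed tumor array 3, which left the 2 weak-signal arrays as the floxed group. In that fit 5793 of 19938 genes were called, so calls rose over all genes as well. Leaving out the weak-signal arrays left floxed tumor array 3 alone as the floxed group, and the number of calls from that fit is not given here. The fit is still among the alternatives tallied in the last section.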

How the data were processed

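RNA was prepared with a GeneChip WT Pico kit and biotin labelled, per the labels' protocols. The deposited values are log2 expression values, 1 column per array, which the authors made with Partek and RMA per the submitters' processing notes; no version or further step is given in the sources used here. Of 35556 probe sets, 21789 had 1 gene symbol, 1621 several and 12146 none in the platform annotation. Those with 1 symbol gave 19938 genes, of which 999 had more than 1 probe set, and the probe set with the highest mean was used. Differences were fitted with limma 3.58.1 in R 4.3.3 (lmFit, eBayes, two-sided) over 10 arrays in 4 groups, or 12 arrays in 2 tissue groups, with Benjamini-Hochberg adjustment over all genes and calls under 0.05; the fit was tested on simulated data. Arrays whose median correlation with the others was under 0.7 are called weak-signal. The number of arrays limits the precision.

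The genes, their roles and the other lists were chosen with earlier results of these data known, so list counts and medians are descriptions. Values in every array are given for Mki67, Top2a, Cdk1, Ccnd2, Ccne1, Foxm1, each called gene and the 3 highest and 3 lowest differences per comparison; from the other lists, genes are named from the up to 4 with the smallest p. Array replicate numbers come from the titles, which name no shared animal. Deviations of same-numbered KO and floxed tumor arrays had r = 0.105, 0.121 and 0.347 over genes, and differently numbered pairs had -0.291 to 0.246. KO tumor array 1 had a higher r with floxed tumor array 2 (0.246) than with floxed tumor array 1 (0.105). The pattern was thus mixed, and whether the numbers mark a shared batch was not tested. Groups of 2 arrays give no such check. The alternatives tried were normalization, a dim gene filter, probe set means, array weights, the arrays in the fit, a replicate block, both readings of the conflicting labels, and leaving out weak or single arrays. Those on counts of genes below 0 or without overlap in KO mice were chosen after seeing the data.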

Additional observations from a re-analysis of the deposited data

Results flagged for a closer look

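Among the 6 adjacent arrays, Ccnd2 in floxed adjacent array 2 stood apart at a log2 value of 5.18, with the others at 5.82 to 6.18. Melk stood apart in the same array at 4.94, with the others at 3.98 to 4.31. Of 40 groups of arrays examined in this way 2 stood apart, which is 1 in 20, and how many chance alone would give was not tested. That array was 1 of the 4 of weak signal, and the part of signal quality in these values was not tested.

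For 3 genes every array of one group moved one way and every array of the other the opposite way. Mad2l1 had a tissue difference, tumor minus adjacent, of -1.39 in KO and 0.24 in floxed mice, and the interaction was -1.64 (adjusted p = 0.707, limma). Kif23 had tissue differences of -1.31 and 0.78, with an interaction of -2.09 (adjusted p = 0.611, limma). Kif20a had a genotype difference, KO minus floxed, of -0.74 in tumor and 0.28 in adjacent epithelium, with an interaction of -1.01 (adjusted p = 0.716, limma). None of the 3 interactions passed the threshold.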

How the results depend on the processing

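For the 31 named differences, 521 of 567 alternative values kept their direction and side of the threshold, 19 lost a call, 20 gained one and 7 reversed. Counts stayed within 1.5 times and medians within 1 SD (between arrays of a group, of each array's median over the 37 genes) of the reported value in 212 of 234 alternatives; that tolerance is wide, and the tumor genotype median ran from -0.25 to 0.07 with single arrays left out. In adjacent epithelium, calls between the genotypes went from 2 to 0 under quantile normalization, where calls over all genes went from 1209 to 128. They also went to 0 with genotype by title and with genotype by characteristic, where 1 and 48 of all genes were called. Without the 30% dimmest genes 1 was called, against 454 of 13956 genes. The median went from 0.20 to 0.45 and 0.62 under quantile normalization and that filter. With single tumor arrays left out, calls over all genes ran from 155 to 4903. Leaving out single arrays gave 0 to 4 calls there. In tumor, calls between the genotypes were 2 with array weights, where 2907 of all genes were called. With single arrays left out they were 0 to 6, and calls over all genes ran from 10 to 5793. Between the KO tissues calls were 7 with array weights, where 1042 of all genes were called. They were 1 with only the arrays compared or without the weak-signal arrays, where 368 of all genes were called. Genes without overlap were 11 with genotype by title and 5 by characteristic. With single KO arrays left out they were 20 to 30, but leaving out an array cannot lower this count. Those 5 alternatives, which are among the 212, are therefore no check on it. Ccne2 between the KO tissues reversed to -0.02 with genotype by title and -0.09 without KO tumor array 1 (-0.09 to 0.23 with single arrays left out). Over all arrays, Bub1 reversed to 0.00 (just below 0) with array weights, -0.20 without the weak-signal arrays and -0.01 without floxed tumor array 2 (-0.01 to 0.35 with single arrays left out), and Kif20a to -0.19 and -0.16 with the first 2 of these. Beyond the smaller set of arrays or genes, the cause was not tested. With the replicate number as a block, calls among the 37 genes stayed at 2 in adjacent epithelium, where 2450 of all genes were called. They stayed at 0 in the other comparisons, and the KO tissue median was -0.28. Outside the tumor genotype comparison the pairing could not be checked, since each involves a group of 2 arrays.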
